A study of Mus musculus with 9 samples.

Results

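The 9 TNF superfamily ligands described here are Tnf, Lta, Ltb, Tnfsf8, Tnfsf10, Tnfsf11, Tnfsf14, Cd40lg and Fasl. They were taken by gene symbol from a count table of 20732 genes, and all 9 were found and were among the 14405 genes with enough counts to be tested. The libraries are bulk RNA-seq of group 2 innate lymphoid cells (ILC2s), lymphocytes of tissues that lack rearranged antigen receptors and make type 2 cytokines. They were sorted from pancreata of C57BL6/J mice. Control mice received PBS, and the titles call these 4 libraries naive. Treated mice received 200 ng of IL-33, an alarmin cytokine that activates ILC2s, on day 0 and again on day 1 (5 libraries by their titles). All pancreata were taken on day 5, and the sort kept live CD45+ CD3- B220- lineage- KLRG1+ cells of both groups, so KLRG1, which marks part of the ILC2s, was required of every cell. No age or sex of the mice, and no link of a library to a single mouse, is given in the sources used here.

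Ligands of this family are membrane proteins that assemble into trimers and signal to neighbouring cells through receptors of the TNF receptor superfamily. Some are also cut from the membrane, as TNF is by the protease ADAM17, and lymphotoxin alpha is secreted on its own or held at the surface in a complex with lymphotoxin beta. Tnf, Lta and Ltb lie side by side in the class III region of the major histocompatibility complex. In lymphocytes the family serves inflammation (Tnf), the building of lymphoid tissue (Lta, Ltb), cell death (Fasl, Tnfsf10) and costimulation or help to other cells (Tnfsf8, Tnfsf14, Cd40lg, Tnfsf11).

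Transcripts of lymphotoxin beta (Ltb) and of Tnf were lower after IL-33, those of CD30 ligand (Tnfsf8) were higher, and the other 6 ligands did not pass the test. Of the 9 ligands, 3 were called at an adjusted p below 0.05 (edgeR's quasi-likelihood test, adjusted by the Benjamini-Hochberg method over all tested genes), against 25.2% of all tested genes. Ltb and Tnf fell, where 11.6% of all tested genes were called lower, and Tnfsf8 rose, where 13.7% were called higher. Ltb and Tnfsf8 also had groups of libraries that did not overlap, as 26.1% of all tested genes did. The median log2 change of the 9 ligands was -0.20, beside -0.05 over all tested genes. Scaling by library size alone moved the median of all genes by 0.13 and the share of calls that were higher from 54.1% to 67.4%, and none of the 9 ligands changed its direction or its call with it.

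Total counts per library lay between 14216976 and 21020023. Levels are TMM-scaled CPM (counts relative to library size), means are given ± SD over libraries (n = 4 with PBS and n = 5 with IL-33 throughout), and log2 changes are IL-33 over PBS ± SE. The defining ILC2 transcripts were present in both groups, with Gata3, the lineage's transcription factor, at 4520 ± 579 CPM with PBS and 4030 ± 1590 CPM with IL-33, and Id2 at 1210 ± 79.9 and 1290 ± 147 CPM. PBS replicate 4 stood apart, with 35.68% of its counts in 14 genes of acinar cells, which secrete digestive enzymes, against 0.11% to 9.983% in the other libraries. Acinar genes such as Cela2a and Amy2a5 were not called between the groups. Beta-globin transcripts summed to 366 to 1290 CPM in IL-33 replicates 1, 2 and 3 and to at most 3.91 CPM elsewhere. Where leaving out PBS replicate 4, or IL-33 replicates 1, 2 and 3, ended the call of a ligand, a receptor or a pathway gene given with its adjusted p, the value is stated.

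The promoters of the ligands that fell are shown here with letters that match the sites of known factors, beside that of the ligand that rose. NF-kappaB and NFAT are the factors best known to drive Ltb and Tnf in lymphocytes. Each window holds the 250 bases before the RefSeq start (RefSeq, build GRCm38.p6), and 8 of the 9 ligands had an entry, Cd40lg being the one without. The gene models of GENCODE M21, used for gene positions below, start upstream of the RefSeq start for Ltb, Tnfsf8 and Tnfsf10. Part of those windows therefore lies inside the genes as GENCODE places them. Capitals mark matches on either strand to the kappaB consensus GGGRNNYYCC, to the NFAT core GGAAA and to the AP-1 site TGANTCA. R is A or G, Y is C or T, and N is any base. The windows are chr17:35194257-35194506 (plus strand) for Ltb, chr17:35202008-35202257 (minus strand) for Tnf and chr4:63861285-63861534 (minus strand) for Tnfsf8.
Ltb: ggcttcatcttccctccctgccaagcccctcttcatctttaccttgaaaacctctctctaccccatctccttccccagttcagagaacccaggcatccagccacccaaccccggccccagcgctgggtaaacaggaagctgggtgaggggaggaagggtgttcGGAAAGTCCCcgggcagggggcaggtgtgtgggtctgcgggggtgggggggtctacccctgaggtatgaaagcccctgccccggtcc
Tnf: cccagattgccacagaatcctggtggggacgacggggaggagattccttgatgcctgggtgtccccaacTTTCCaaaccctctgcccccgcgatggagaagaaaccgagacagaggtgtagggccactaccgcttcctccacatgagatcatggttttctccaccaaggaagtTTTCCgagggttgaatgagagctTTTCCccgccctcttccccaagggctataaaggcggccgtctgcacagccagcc
Tnfsf8: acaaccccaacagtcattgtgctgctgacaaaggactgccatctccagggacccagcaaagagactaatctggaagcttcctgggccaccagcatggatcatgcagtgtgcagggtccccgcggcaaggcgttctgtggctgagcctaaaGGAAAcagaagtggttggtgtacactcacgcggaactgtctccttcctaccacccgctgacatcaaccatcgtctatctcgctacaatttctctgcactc

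Of the 8 promoters, only that of Ltb held a kappaB match, whose first base lies 87 bases before the RefSeq start, and 7.25% of 32817 promoters of the same length held one. The single GGAAA of the Ltb window lies inside that match. Tnf held 3 GGAAA matches and no kappaB match, Tnfsf8 held 1, and every one of the 8 promoters held at least 1, as did 55.6% of all promoters. An AP-1 match occurred in Tnfsf14 alone, against 6.75% of all promoters. A match is a description of the letters and not evidence of binding, and the libraries carry no measurement of binding.

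Ltb encodes lymphotoxin beta, the membrane anchor of the surface lymphotoxin complex, and lies at chr17:35194439-35196320 on the plus strand (GENCODE M21, GRCm38). It stood at 3140, 3330, 3320 and 2900 CPM in PBS replicates 1 to 4 and at 565, 366, 1250, 407 and 504 CPM in IL-33 replicates 1 to 5. Every IL-33 library lay below every PBS library, the PBS libraries lay close together, and IL-33 replicate 3 stood above the rest of its group. The mean was 3170 ± 201 CPM with PBS and 619 ± 363 CPM with IL-33. Ltb fell by 2.36 ± 0.34 (SE) on the log2 scale, 5.12-fold, with an edgeR adjusted p of 0.00117. In bulk RNA, fewer cells that carry a transcript and less of it per cell cannot be told apart. The call held in all 20 alternative analyses, with log2 changes from -2.79 to -2.22.

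Ltb is also made by B and T cells, which the sort excluded. The B cell genes Ms4a1 and Cd22 averaged below 1 CPM in both groups, and Cd79a stood at 0.759 ± 0.752 CPM with PBS and 0.463 ± 0.744 CPM with IL-33. Cd79b, which encodes a chain of the B cell receptor, rose from 16.4 ± 10.3 to 74.8 ± 15.9 CPM (2.18 on the log2 scale, edgeR adjusted p = 0.0146). Ighm, the heavy chain gene of IgM and a B cell gene outside the list, fell with Ltb, from 478 to 156 CPM on average (-1.61 on the log2 scale, edgeR adjusted p = 0.00482). Of 7 tested T cell genes, Trbc1 fell and the other 6 had no call, where 11.6% of all tested genes were called lower. The summed level of the T cell list was 947 to 1060 CPM with PBS and 755 to 1010 CPM with IL-33, most of it Trbc2, Trbc1 and Cd3g, while Trac and Cd8b1 averaged at most 2.47 CPM. The part of other cells in the fall of Ltb was not tested.

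Tnf encodes the inflammatory cytokine that gives the family its name, at chr17:35199381-35202007 on the minus strand. Its libraries read 31.3, 42.3, 51.3 and 11.2 CPM with PBS and 10.5, 7.90, 14, 6.81 and 8.07 CPM with IL-33. The first 3 PBS libraries were above all IL-33 libraries, whereas PBS replicate 4 lay within the IL-33 range, so the groups overlapped. Tnf went from 34.0 ± 17.3 to 9.46 ± 2.89 CPM and fell by 1.85 ± 0.40 (SE), with an edgeR adjusted p of 0.00919. Without PBS replicate 4, the library rich in acinar RNA, the log2 change was -2.15 (edgeR adjusted p = 0.00116). Without IL-33 replicates 1, 2 and 3 the log2 change was -2.18 and missed the threshold (edgeR adjusted p = 0.0844).

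Lta encodes lymphotoxin alpha, the soluble partner of Ltb, at chr17:35203165-35205351 on the minus strand. Its levels were 16.7, 6.09, 5.47 and 22.1 CPM with PBS and 0.608, 1.31, 6.51, 5.24 and 2.75 CPM with IL-33. PBS replicates 2 and 3 lay within the IL-33 range, and PBS replicates 1 and 4 lay above all of them. The log2 change of -1.93 ± 0.70 (SE), with a 95% interval from -3.51 to -0.36, was as large as that of Tnf but missed the threshold (edgeR adjusted p = 0.0722). DESeq2 gave Lta an adjusted p of 0.0194, limma voom 0.0403 and edgeR with a stricter filter on low counts 0.045, all past the threshold. The PBS libraries high in Lta, 1 and 4, were not those high in Tnf, 2 and 3.

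**Figure D1:**
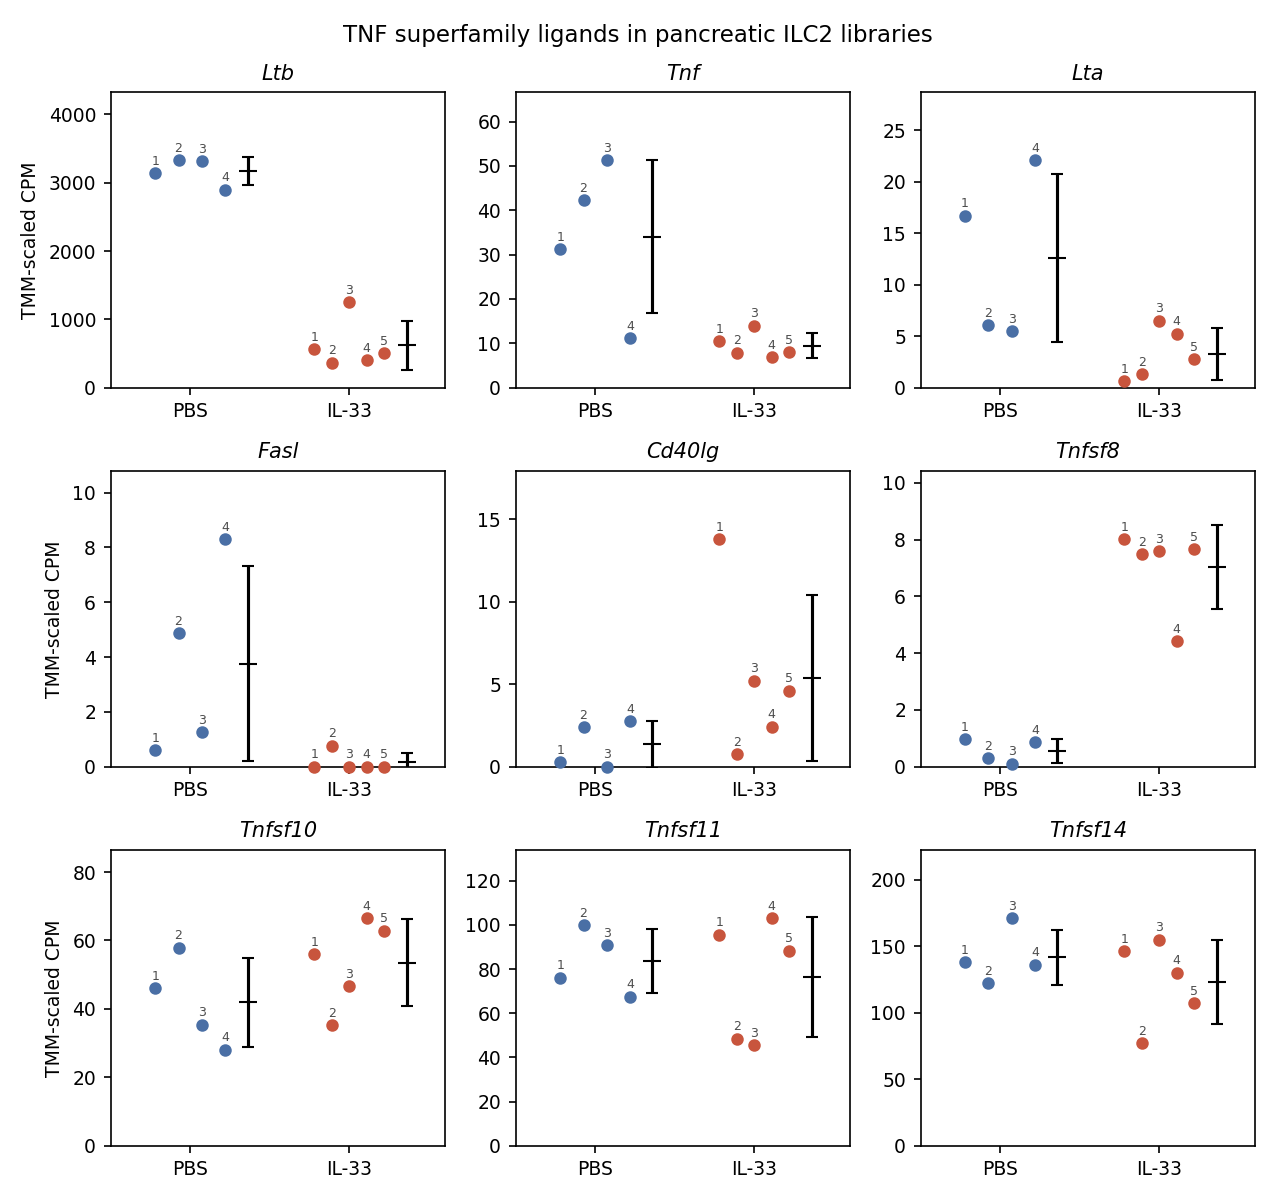
TMM-scaled CPM of the 9 ligands (vertical axis, from 0, its own scale in each panel) in 4 PBS and 5 IL-33 libraries. Points are libraries with their replicate number, and the bar beside each group is the mean ± SD, cut at 0 where it would pass below. Ltb and Tnfsf8 separate the groups, and Tnf does so but for PBS replicate 4.

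Of the genes on either side of the locus none was called. Prrc2a, Lst1, Nfkbil1, Atp6v1g2 and Ddx39b were tested, with log2 changes from -0.25 (Nfkbil1) to 0.86 (Lst1). Nfkbil1, the nearest tested gene past Lta, stood at 19.8 ± 2.23 CPM with PBS and 16.7 ± 5.41 CPM with IL-33, an edgeR adjusted p of 0.523. The 95% interval of Ddx39b, an RNA helicase gene at a level above that of Tnf, ran from -0.46 to 0.31, and its sign turned with library size alone and without PBS replicate 2. Nfkbil1 and Atp6v1g2 share exon bases on opposite strands, so their reads could be split between them.

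**Figure D2:**
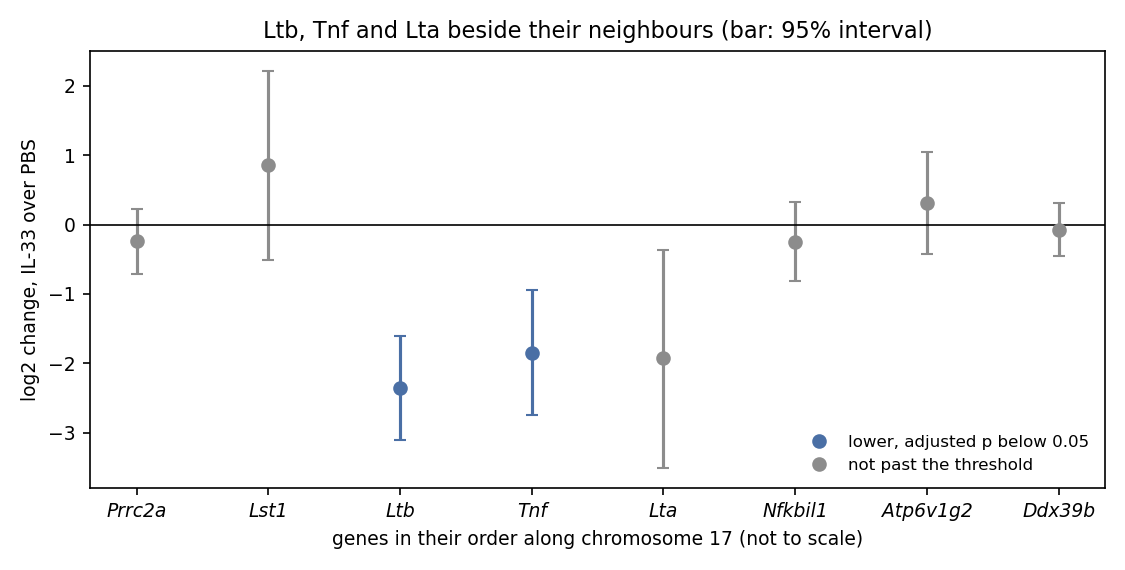
Log2 change with IL-33 over PBS (vertical axis) of Ltb, Tnf, Lta and their tested neighbours in their order on chromosome 17, not to scale. Points are edgeR estimates with 95% intervals, and blue marks an adjusted p below 0.05. Ltb, Tnf and Lta lie below 0 with intervals that exclude it, Lta without passing the adjusted threshold, and the intervals of the 5 neighbours include 0.

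Tnf and Lta carry AU-rich elements, the sites through which proteins such as ZFP36 shorten the life of cytokine messages. The nonamer TTATTTATT occurs 5 times in the 764 bases of the Tnf 3' untranslated region and 1 time in the 572 bases of that of Lta (GENCODE M21 transcripts). It was absent from the 3' untranslated regions of the other 7 ligands, Ltb with 156 bases and Tnfsf8 with 2799 among them. Of 11030 tested protein-coding genes, 7.11% held it, with a median region of 937 bases. The stretch of 30 bases richest in the pentamer ATTTA is shown for both genes, with the pentamers in capitals. It lies at chr17:35199679-35199708 (minus strand, with 5 pentamers) for Tnf and chr17:35203404-35203433 (minus strand, with 2) for Lta.
Tnf: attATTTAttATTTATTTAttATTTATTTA
Lta: tatggagagaaaagttaagttATTTATTTA

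The genes of message decay and stability were fixed as a list of 10, and all were tested. Of these, 4 were called lower and 1 higher, beside 11.6% and 13.7% of all tested genes, and the median log2 change was -0.64. Zfp36l2, which encodes a protein that binds such elements and speeds decay, fell from 467 ± 171 to 128 ± 39.6 CPM, or -1.87 on the log2 scale (edgeR adjusted p = 0.00162). Its relative Zfp36l1 fell by 0.98 (edgeR adjusted p = 0.00713). Zfp36 itself stood at 2230 ± 514 CPM with PBS and 1610 ± 395 CPM with IL-33 and had no call (edgeR adjusted p = 0.13). Khsrp, which encodes another decay factor, rose from 7.24 ± 1.6 to 19.8 ± 8.22 CPM (edgeR adjusted p = 0.0179), a call lost with library size alone and with limma voom (adjusted p = 0.0519 in both). Of the messages that fell, Tnf holds nonamers and Ltb holds none. The part of message decay in the ligand changes was not tested. Without IL-33 replicates 1, 2 and 3 the Zfp36l2 and Zfp36l1 calls were lost, with edgeR adjusted p values of 0.0622 and 0.138.

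Fasl encodes the ligand of the death receptor FAS and is best known from cytotoxic lymphocytes. It was counted at 0.609, 4.88, 1.27 and 8.30 CPM with PBS and at 0, 0.772, 0, 0 and 0 CPM with IL-33. All PBS libraries held Fasl counts, and IL-33 replicate 2 was the only one of its group that did, so the groups overlapped through PBS replicate 1. A count of 0 allows 0.133 to 0.166 CPM in those 4 libraries. The log2 change of -4.60 ± 1.63 (SE), from 3.76 ± 3.56 to 0.154 ± 0.345 CPM, missed the threshold (edgeR adjusted p = 0.0657). The 13 IL-33 counts of Fasl were all in IL-33 replicate 2. Without it the group was at 0 and the fitted log2 change moved to -9.13, which is then no measure of size (edgeR adjusted p = 0.0133). Fasl also passed with all libraries under DESeq2 (adjusted p = 0.0245), limma voom (adjusted p = 0.0305) and limma-trend on the deposited signal (adjusted p = 0.0128).

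Of the 10 genes listed for NK cells, which use Fasl, and type 1 innate lymphoid cells, only 5 were analysed here, and these were low. Their summed level was 0.102 to 5.73 CPM with PBS and 0.266 to 2.61 CPM with IL-33, and Prf1, the perforin gene, reached 4.58 CPM in PBS replicate 2, which was also high in Fasl. In PBS replicate 4, where Fasl was highest, Prf1 stood at 0.573 CPM. Gzmb, which encodes granzyme B, stood at 1.6 CPM in IL-33 replicate 2, the only IL-33 library with Fasl counts. Gzmb was at 0 in all PBS libraries. The part of NK cells in the Fasl counts was not tested.

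Tnfsf10 encodes TRAIL, the other death ligand. It stood at 46.1, 57.9, 35.4 and 28.1 CPM with PBS and at 56.0, 35.3, 46.7, 66.5 and 62.9 CPM with IL-33, with groups that overlapped over most of their range. The log2 change was 0.35 ± 0.25 (SE), with a 95% interval from -0.21 to 0.91 (edgeR adjusted p = 0.339). No alternative gave it a call.

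Tnfsf8 encodes CD30 ligand, a costimulatory ligand of activated lymphocytes, at chr4:63831308-63861347 on the minus strand. It was near the limit of counting with PBS, at 0.965, 0.301, 0.101 and 0.859 CPM, and stood at 8.01, 7.48, 7.58, 4.43 and 7.67 CPM with IL-33. Every IL-33 library lay above every PBS library, and 4 of the 5 lay close together with replicate 4 below them. Its counts summed to 35 over the PBS libraries and 700 over the IL-33 libraries. Tnfsf8 rose from 0.557 ± 0.420 to 7.04 ± 1.47 CPM, or 3.66 ± 0.66 (SE) on the log2 scale, with an edgeR adjusted p of 0.00371. Without IL-33 replicates 1, 2 and 3 the log2 change was 3.45 and the edgeR adjusted p 0.0844.

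Cd40lg encodes CD40 ligand, the helper signal that lymphocytes give to B cells and dendritic cells. Its libraries read 0.254, 2.41, 0 and 2.77 CPM with PBS and 13.8, 0.772, 5.21, 2.43 and 4.61 CPM with IL-33. IL-33 replicate 1 was the highest, while IL-33 replicates 2 and 4 lay within the PBS range. The log2 change of 2.0 ± 1.23 (SE) had a 95% interval from -0.75 to 4.74 (edgeR adjusted p = 0.267), and without IL-33 replicate 1 it was 1.28.

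Tnfsf11, which encodes RANKL, the ligand that drives osteoclasts and acts on epithelial and dendritic cells, was among the more abundant ligands in both groups. Its levels were 76.1, 100, 90.7 and 67.5 CPM with PBS and 95.6, 48.5, 45.5, 103 and 88.3 CPM with IL-33. IL-33 replicates 2 and 3 lay below all PBS libraries and the other 3 among or above them. The log2 change was -0.14, with a 95% interval from -0.73 to 0.46 (edgeR adjusted p = 0.748). Its sign turned without IL-33 replicate 3.

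Tnfsf14 encodes LIGHT, a ligand of the lymphotoxin beta receptor and of HVEM. It stood at 138, 122, 171 and 136 CPM with PBS and at 146, 77.3, 155, 130 and 107 CPM with IL-33. The groups overlapped, with IL-33 replicate 2 lowest. The log2 change was -0.20, with a 95% interval from -0.65 to 0.25 (edgeR adjusted p = 0.501), so a change of the size of that of Ltb, which shares its receptor, lay outside the interval.

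**Figure D3:**
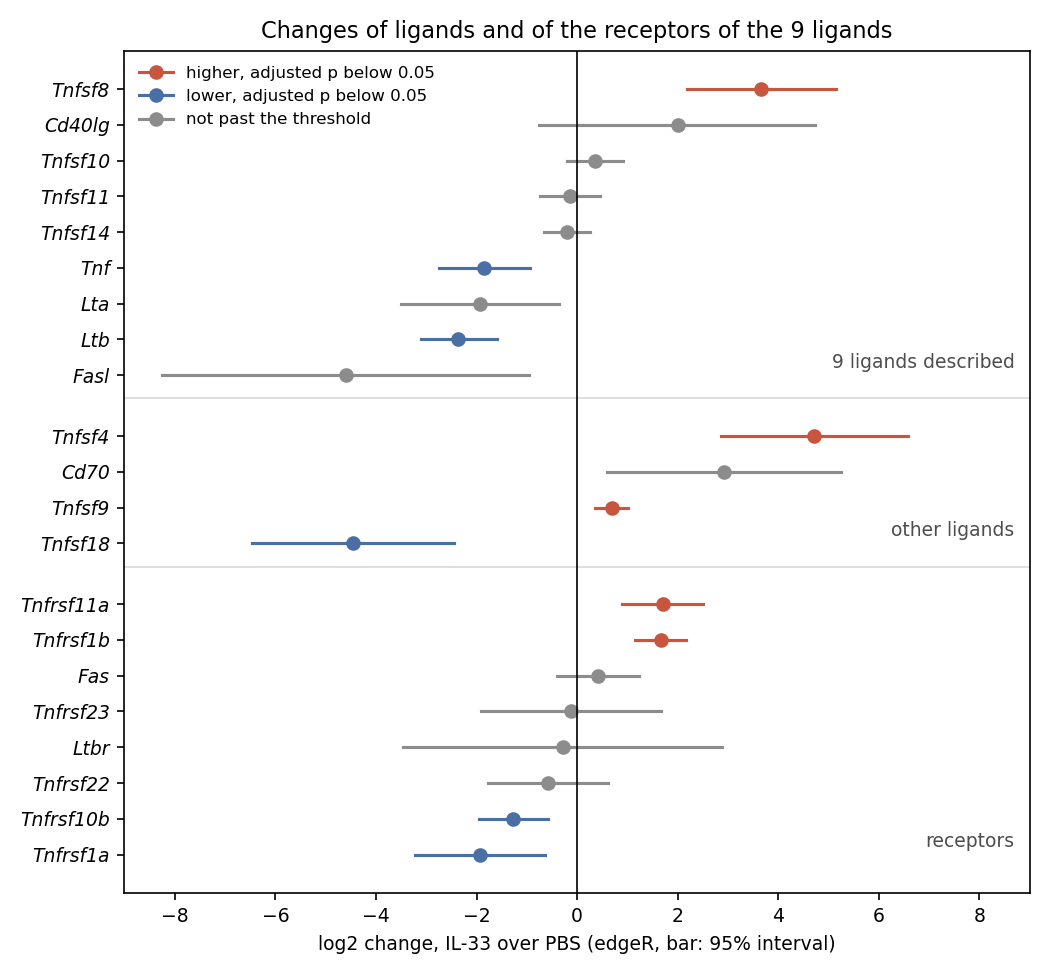
Log2 change with IL-33 over PBS (horizontal axis, edgeR estimate with 95% interval) of the 9 ligands, of other tested ligands of the family and of tested receptors of the 9 ligands. Red and blue mark an adjusted p below 0.05, higher and lower. Tnfsf15 and Tnfrsf8, with no PBS counts, are left out, and Ltb and Tnfsf8 are called in opposite directions.

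Levels were compared between ligands per kilobase of exon. With PBS the order was Ltb (2090 ± 132 CPM per kb), Tnfsf14 (76.7 ± 11.4), Tnfsf11 (37.4 ± 6.51), Tnf (20.8 ± 10.5), Lta (9.10 ± 5.91), Tnfsf10 (7.95 ± 2.46), Fasl (1.94 ± 1.84), Cd40lg (1.09 ± 1.15) and Tnfsf8 (0.146 ± 0.11), each as mean ± SD over 4 libraries. Neighbours from Tnfsf11 down to Tnfsf10 and from Fasl down to Tnfsf8 did not differ beyond 1 SD of each. Ltb ranked 34 of 14347 tested genes with a length and Tnfsf14 ranked 850.

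With IL-33 the order was Ltb (408 ± 239 CPM per kb), Tnfsf14 (66.7 ± 17), Tnfsf11 (34.0 ± 12.1), Tnfsf10 (10.2 ± 2.40), Tnf (5.77 ± 1.76), Cd40lg (4.29 ± 4.03), Lta (2.37 ± 1.83), Tnfsf8 (1.85 ± 0.386) and Fasl (0.0797 ± 0.178), over 5 libraries. The first 3 places were held by the same ligands as with PBS, and Ltb still ranked 189 of 14347 genes. Neighbours from Tnf down to Tnfsf8 did not differ beyond 1 SD of each. Tnfsf8, although it rose, remained low, at rank 9619.

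Among the 9 ligands, Ltb made up most of the transcripts in every library, and its share was lower with IL-33. Of the summed CPM per kb of the 9 ligands, Ltb took 93.3%, 93.4%, 92.6% and 93.2% in the PBS libraries and 71.0%, 75.4%, 86.2%, 65.7% and 73.1% in the IL-33 libraries. The groups did not overlap, and IL-33 replicate 3 lay nearest to the PBS libraries. The share of Tnfsf14 was 3.42% ± 0.471 in the PBS and 13.4% ± 3.14 in the IL-33 libraries, and that of Tnfsf11 was 1.66% ± 0.195 and 7.39% ± 3.36. These higher shares stood in a smaller sum, 2250 ± 146 CPM per kb with PBS and 534 ± 249 CPM per kb with IL-33, while the levels of Tnfsf14 and Tnfsf11 had no call. The shares of Tnf were 0.904% ± 0.425 and 1.14% ± 0.233, with groups that overlapped.

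**Figure D4:**
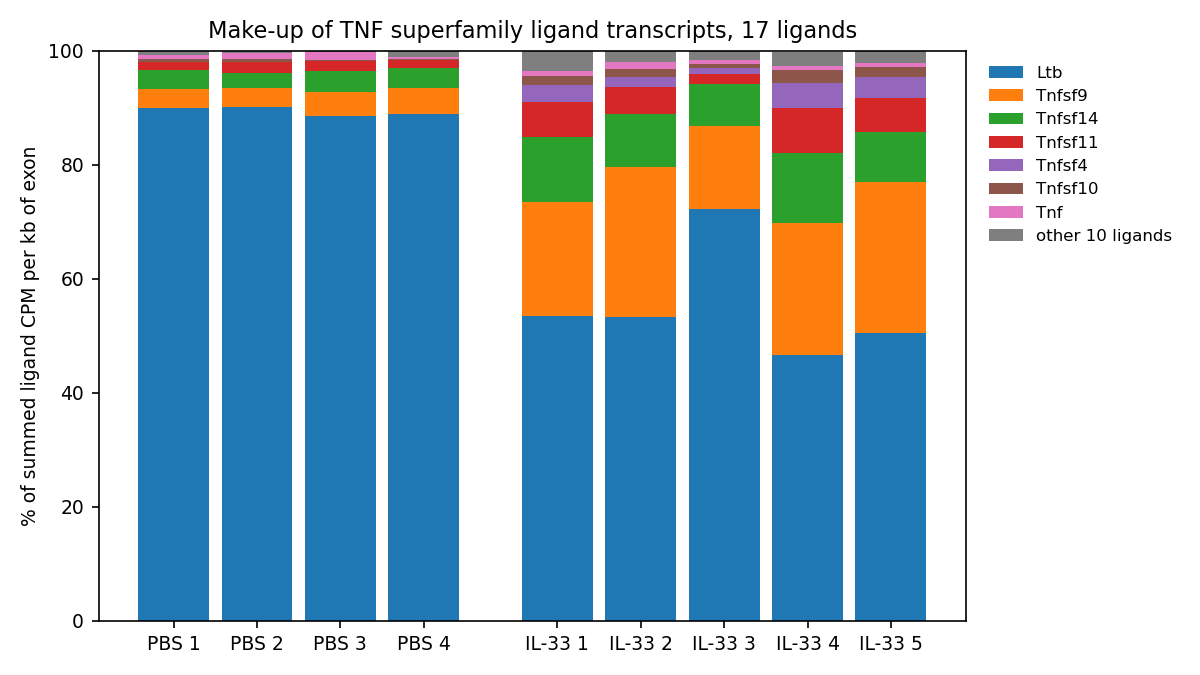
Percent of the summed CPM per kb of 17 ligands of the family (vertical axis, from 0 to 100) in each library. Ltb took 88.5% to 90.1% in the PBS libraries and 46.6% to 72.2% in the IL-33 libraries, and Tnfsf9 3.35% to 4.59% and 14.6% to 26.4%.

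Among the other ligands of the family, 8 were counted, and Tnfsf13 was not analysed here. Of the 5 that were tested, 3 rose and 1 fell, where 13.7% and 11.6% of all tested genes were called higher and lower. All 5 had groups that did not overlap, as 26.1% of all tested genes did. For Tnfsf15 the margin was 1 count in IL-33 replicate 5, below the 3 counts that a PBS count of 0 allows. Tnfsf4, which encodes OX40 ligand, a costimulator of T cells, stood at 0.152, 3.01, 1.57 and 0.191 CPM with PBS and at 39.4, 15.0, 20.8, 47.1 and 43.7 CPM with IL-33. It rose by 4.72 ± 0.83 (SE) on the log2 scale (edgeR adjusted p = 0.00328). Tnfsf9, a costimulatory ligand of T cells, was after Ltb the most abundant of the 17 ligands per kb in both groups. It went from 118 ± 16.3 to 189 ± 29.8 CPM, or 0.69 on the log2 scale (edgeR adjusted p = 0.00826). It shares exon bases with Gm11110 on the opposite strand, and its call was lost with library size alone (adjusted p = 0.0505) and without IL-33 replicates 1, 2 and 3 (adjusted p = 0.0543).

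Tnfsf15, which encodes TL1A, was at 0 counts in all PBS libraries and at 1.10, 1.66, 3.21, 6.53 and 0.0444 CPM with IL-33. Set against 3 counts per PBS library, its mean was at least 13.0-fold higher (edgeR adjusted p = 0.0185), and limma voom did not call it (adjusted p = 0.142). IL-33 replicate 5 held 1 count, under that floor. Tnfsf15 had too few counts to be tested without IL-33 replicates 1, 2 and 3 together or without any one of IL-33 replicates 1 to 4. Tnfsf18, which encodes GITR ligand, fell from 1.99 ± 0.928 to 0.0867 ± 0.0906 CPM, or -4.45 on the log2 scale (edgeR adjusted p = 0.00641). Without IL-33 replicates 1, 2 and 3 the log2 change was -6.04 and missed the threshold (edgeR adjusted p = 0.064). Tnfsf4 and Tnfsf18 lie on chromosome 1 at chr1:161395409-161418410 and chr1:161494655-161505290, on the same strand as each other, and were called in opposite directions. Cd70, the ligand of CD27, stood at 0.670 ± 0.734 CPM with PBS and 5.24 ± 2.21 CPM with IL-33, and its log2 change of 2.93 missed the threshold (edgeR adjusted p = 0.066) although the groups did not overlap. Tnfsf12, Tnfsf13b and Eda had too few counts to be tested.

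Receptors of the 9 ligands were read in the same cells, which may answer the ligands as well as make them. Of 9 tested receptors, 3 rose, 2 fell and 4 had no call, with a median log2 change of -0.12. Among all tested genes, 13.7% were called higher and 11.6% lower. Tnfrsf8, which encodes CD30, the receptor of the ligand that rose, was at 0 counts in all PBS libraries and at 10.6, 26.5, 1.53, 1.95 and 8.83 CPM with IL-33. Against 3 counts per PBS library its mean was at least 51.3-fold higher (edgeR adjusted p = 0.00554), and the IL-33 libraries differed widely among themselves. The call was lost with limma voom (adjusted p = 0.118) and without IL-33 replicates 1, 2 and 3 (adjusted p = 0.0578).

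Tnfrsf1b, which encodes TNF receptor 2, the TNF receptor typical of lymphocytes, stood at 14.8, 27.9, 29.5 and 19.0 CPM with PBS and at 68.8, 70.0, 65.3, 66.1 and 91.1 CPM with IL-33. It rose by 1.66 ± 0.23 (SE) on the log2 scale (edgeR adjusted p = 0.00094), while its ligand Tnf fell, and it kept its call in all 20 alternatives. Tnfrsf1a, which encodes the widely expressed TNF receptor 1, read 5.48, 3.62, 3.85 and 16.2 CPM with PBS and 0.994 to 2.85 CPM with IL-33. Its log2 change of -1.93 (edgeR adjusted p = 0.0349) rested on PBS replicate 4, the highest, without which it was -1.18 (adjusted p = 0.114). It also lost its call without PBS replicate 1 (adjusted p = 0.0539) and without any one of IL-33 replicates 1, 3, 4 and 5 (adjusted p = 0.0709, 0.0686, 0.0722 and 0.051). Without IL-33 replicates 1, 2 and 3 together its log2 change was -1.79 and missed the threshold (edgeR adjusted p = 0.244).

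Tnfrsf11a, which encodes RANK, rose from 10.5 ± 4.73 to 34.0 ± 10.4 CPM, or 1.70 on the log2 scale (edgeR adjusted p = 0.00824), whereas its ligand Tnfsf11 had no call. Without IL-33 replicates 1, 2 and 3 the log2 change was 1.92 and missed the threshold (edgeR adjusted p = 0.0563). Tnfrsf10b, the mouse receptor of TRAIL, fell from 43.3 ± 15.6 to 17.9 ± 5.01 CPM, or -1.27 on the log2 scale (edgeR adjusted p = 0.0145). Its call was lost with library size alone (adjusted p = 0.0653) and without IL-33 replicates 1, 2 and 3 (adjusted p = 0.105). Fas, the receptor of Fasl, stood at 10.8 ± 5.73 and 14.5 ± 3.77 CPM with no call (edgeR adjusted p = 0.429). Ltbr, the receptor of the lymphotoxin complex and of LIGHT, averaged 2.09 ± 2.18 and 1.70 ± 1.96 CPM and was at 0 in PBS replicate 1 and IL-33 replicate 4. The decoy receptors Tnfrsf22 and Tnfrsf23 had no call. Tnfrsf14 and Cd40 had too few counts to be tested, and Tnfrsf11b was not analysed here.

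**Figure D5:**
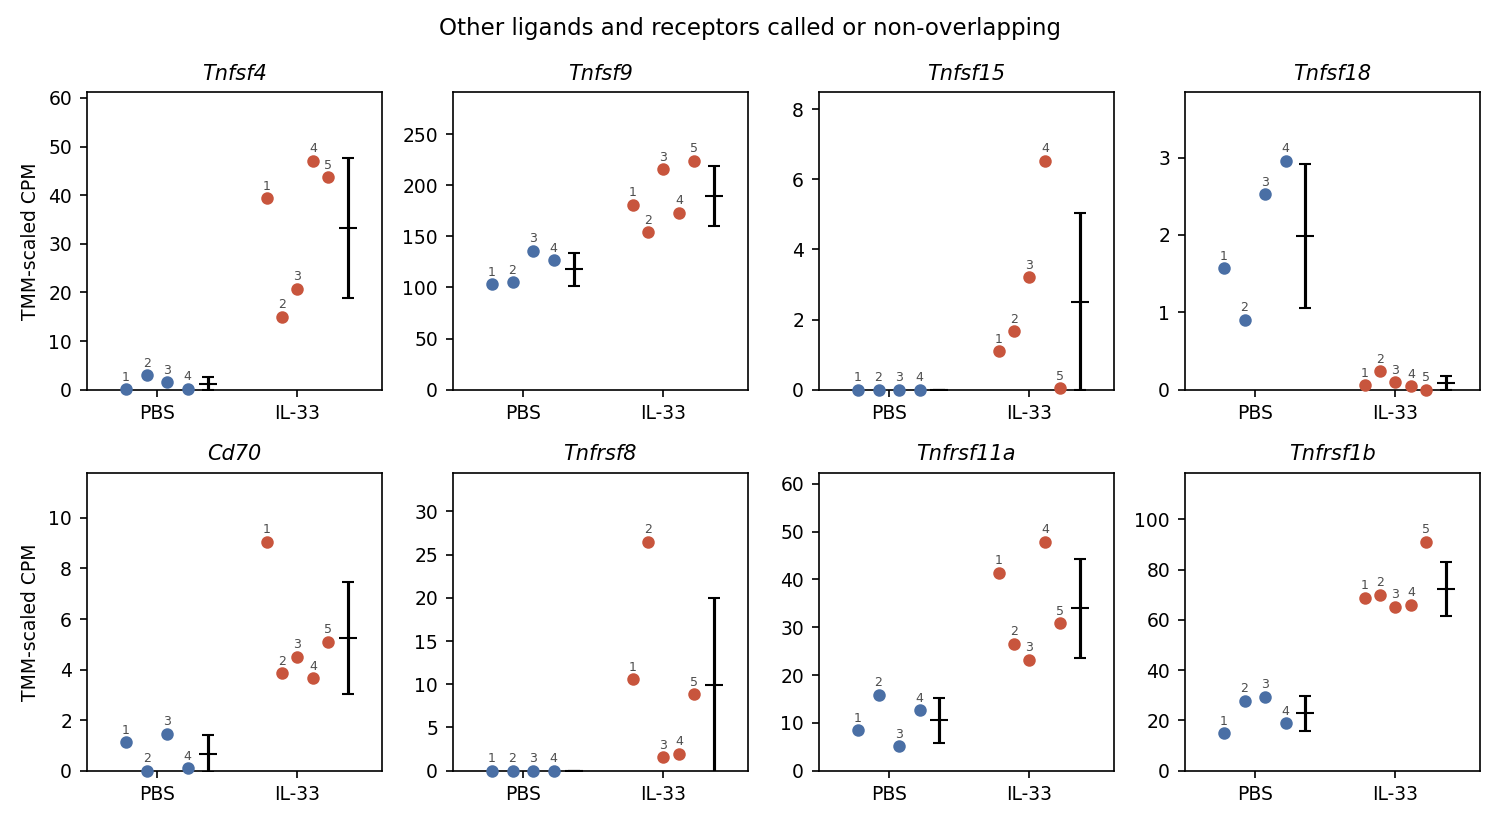
TMM-scaled CPM (vertical axis, from 0, its own scale in each panel) of 5 other ligands and 3 receptors in 4 PBS and 5 IL-33 libraries. Points are libraries with their replicate number, and the bar beside each group is the mean ± SD, cut at 0. Tnfsf15 and Tnfrsf8 have no PBS counts. The points of the groups do not overlap in any panel, but in that of Tnfsf15 IL-33 replicate 5 has 1 count, below what a count of 0 allows.

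Genes that carry the signal of these receptors were fixed as a list of 17, and all were tested. Of these, 7 were called lower and 2 higher, with a median log2 change of -0.40, beside 11.6% and 13.7% of all tested genes. With library size alone, 1 of the 17 was called lower and 1 higher. Ikbkb, a kinase that frees NF-kappaB, fell from 200 ± 26.8 to 100 ± 10.4 CPM, with an edgeR adjusted p of 5.59e-04. Birc3, an NF-kappaB target and a ligase of the receptor complex, fell by 1.26 (edgeR adjusted p = 7.6e-04), and Tnfaip3, the NF-kappaB feedback inhibitor A20, fell from 2130 ± 539 to 971 ± 199 CPM (edgeR adjusted p = 0.00333). Tnfaip3 lost its call with library size alone (adjusted p = 0.0639) and without IL-33 replicates 1, 2 and 3 (adjusted p = 0.0863), and Ikbkb with library size alone (adjusted p = 0.0524). The 2 that rose were the adaptors Tradd and Traf1.

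Of 5 tested genes of ligand shedding, Timp3, an inhibitor of ADAM17, fell from 7.56 ± 4.05 to 0.698 ± 0.726 CPM (edgeR adjusted p = 0.0428), and the other 4 had no call. The call of Timp3 was lost without any one of PBS replicates 1, 2 and 4 and IL-33 replicates 2, 3 and 4, with adjusted p values from 0.0588 to 0.115, and without IL-33 replicates 1, 2 and 3 together (adjusted p = 0.214). Adam10 stood at 80.6 ± 29.7 and 70.7 ± 23.9 CPM, and Frmd8, which supports ADAM17 at the surface, at 39.7 ± 18.2 and 66.0 ± 19.9 CPM (edgeR adjusted p = 0.138). Of 8 genes of calcineurin and NFAT, a pathway driven by calcium, 3 were called lower and none higher. The share called lower was 11.6% over all tested genes. Rcan1, an NFAT target that restrains calcineurin, fell by 1.41 (edgeR adjusted p = 0.0134), and Ppp3ca and Dyrk1a fell by 0.56 and 0.77 with adjusted p values of 0.0428 and 0.0494, calls that held in 8 and 7 of 20 alternatives and were lost without IL-33 replicates 1, 2 and 3 (adjusted p = 0.162 and 0.343).

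Immediate early genes are switched on within minutes of a stimulus or of tissue handling. Of 15 tested, 10 were called lower, as Tnf and Ltb were, and none higher, beside 11.6% and 13.7% of all tested genes. Their median log2 change was -1.48. The other 5 had no call, Dusp2 with a log2 change of 1.90 and Ier3 with 0.63 among them. Their summed level was 22400 to 29000 CPM with PBS and 9220 to 12600 CPM with IL-33, without overlap. Btg2 fell by 2.43, Egr1 by 2.69 and Atf3 by 2.91 on the log2 scale, with edgeR adjusted p values of 6.8e-06, 7.11e-05 and 7.54e-06. In PBS replicate 4, where Tnf was lowest among the PBS libraries, the summed level of all 15 genes was the highest of all libraries. Junb (3730 CPM) and Jun (1340 CPM), which had no call, were highest there. The called genes were mixed. Among the PBS libraries, Fos, Egr1, Egr2, Ier2 and Atf3 were highest in replicate 4, and Dusp1, Btg2 and Nr4a2 lowest. Fosb and Nr4a3 lay between. The part of the immediate early genes in the change of Tnf and Ltb was not tested.

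Some transcripts of other cells also differed between the groups. Of 8 endothelial genes, Kdr, Ptprb and Tie1 fell and the other 5, Pecam1 at 63.2 ± 22.7 and 32.3 ± 13.2 CPM among them, had no call. Over all tested genes, 11.6% were called lower. The sum of the 8 endothelial genes was 57.7 to 225 CPM with PBS and 30 to 63.9 CPM with IL-33. The groups overlapped through PBS replicate 2, and PBS replicate 4, the library rich in acinar RNA, was highest. Of the 6 genes listed for mast cells and basophils, only 2 were analysed here. Cpa3 rose from 28.9 ± 14.9 to 157 ± 108 CPM (edgeR adjusted p = 0.010), and Fcer1a, at 3.62 ± 3.04 and 14.2 ± 5.46 CPM, had no call. Of the genes listed for type 3 innate lymphoid cells, which include strong producers of lymphotoxin, Nrp1 fell (edgeR adjusted p = 0.0323). Of myeloid genes none was called, with Itgam at 8.71 ± 0.815 and 8.57 ± 1.49 CPM and Lyz2 at 1.70 ± 3.40 and 5.95 ± 6.05 CPM. Of fibroblast genes Col1a2 fell from 6.79 ± 6.68 to 0.310 ± 0.321 CPM (edgeR adjusted p = 0.0193) and Col3a1 had no call. The part of these cells in the ligand changes was not tested.

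The genes whose levels ran most like a ligand were found by Pearson's r of log2 CPM over the 9 libraries, among genes with a mean of at least 5 CPM. These values describe libraries that share their scaling and the contrast between the groups. Ltb ran most like Gpr183 (r = 0.989), which encodes a receptor for oxysterols, and Ighm (r = 0.984), the IgM heavy chain gene described above. Gpr183 went from 786 to 241 CPM on average, and both were called lower. Tnf ran most like Cab39 (r = 0.977) and Ssh1 (r = 0.967), and Lta most like Klf9 (r = 0.951) and Hbp1 (r = 0.941), all 4 called lower. Among the ligands with no call, Tnfsf10 ran most like Rora (r = 0.923), a transcription factor of ILC2s, and Jak2 (r = 0.916). Tnfsf11 ran most like Zdhhc5 (r = 0.919) and Pdcd1lg2 (r = 0.907), and Tnfsf14 most like Slain2 (r = 0.904) and Zfp219 (r = 0.881). None of these 6 was called.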

How the data were processed

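Paired reads of 150 nt came from 5 to 15 ng of RNA per library. The authors deposited whole-number counts for each Ensembl gene ID and a normalized signal, which on every value was the count over a factor of its library. Tools named per the submitters' processing notes are STAR 2.7.7a, Salmon 1.6.0, Trimmomatic 0.39, FastQC 0.11.9, Picard and DESeq2, and the build is GRCm38.p6. What each tool did, and whether the kit kept strand, is not stated, so genes that overlap on opposite strands cannot be told apart.

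The main test was edgeR 4.0.16 (R 4.3.3) with TMM scaling, filterByExpr at a minimum count of 10 and a robust two-sided quasi-likelihood F-test, checked on simulated data. SE is the log2 change over the root of F, and the biological coefficient of variation was 0.56. The 20 alternatives were DESeq2 1.42.0, limma 3.58.1 (voom, and trend on the log2 signal with a pseudocount of 1), other scalings and filters, a replicate block, the acinar share as covariate, a threshold of 0.01 and left-out libraries. Floors of 3 counts cover counting error only, and p-values only the spread between libraries. The design text counts 5 mice with PBS and 4 with IL-33, but the titles, followed here, give 4 and 5 libraries. No pair of replicates was a duplicate (chi-square per degree of freedom at least 56.4).

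The ligands, lists and tests were chosen with earlier results of these data known. Genes named were the ligands, their receptors and neighbours, the 3 smallest adjusted p values of other pathway lists, the 2 most abundant genes of each cell type list and the 2 most like each ligand of at least 5 CPM. Any other was chosen after its values were seen. Some genes of the cell type lists are not reported here.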

Additional observations from a re-analysis of the deposited data

Results flagged for a closer look

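Single libraries stood apart from the rest of their group (Dixon's test at the 95% level) in 14 of 56 groups of libraries of ligands and receptors, where chance flags about 1 in 20. That rate does not apply where all other libraries of the group are at 0, since any count then stands apart, as for Fasl, Eda and Tnfsf12, both groups of Tnfsf13b, and Tnfrsf14 and Cd40 with PBS. Among the 9 ligands, Ltb was high in IL-33 replicate 3 (1250 CPM), Tnfsf8 low in IL-33 replicate 4 (4.43 CPM) and Fasl above 0 in IL-33 replicate 2 alone of its group (0.772 CPM). Among the other ligands, Cd70 was high in IL-33 replicate 1 (9.06 CPM), Eda was counted only in PBS replicate 4 (3.72 CPM) and Tnfsf12 among the PBS libraries only in replicate 1 (0.0508 CPM). Tnfsf13b was counted only in PBS replicate 3 (0.557 CPM) and IL-33 replicate 2 (0.891 CPM). PBS replicate 4, the library with the most acinar RNA, was high among its group in Tnfrsf1a (16.2 CPM) and Tnfrsf23 (3.15 CPM) and alone in Cd40 (0.286 CPM). Cd40 was also high in IL-33 replicate 4 (2.52 CPM), Tnfrsf1b in IL-33 replicate 5 (91.1 CPM) and Tnfrsf14 in PBS replicate 1 (1.12 CPM).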

How the results depend on the processing

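Over 20 alternatives, 167 of 178 values of the 9 ligands kept their direction and their side of the threshold. 2 calls were lost (Tnf and Tnfsf8, without IL-33 replicates 1, 2 and 3), 7 were gained by Lta and Fasl, and the log2 change of Tnfsf11 ran from -0.289 to 0.00294 with 1 library left out and was 0.20 without IL-33 replicates 1, 2 and 3. DESeq2 and limma voom each called 4 ligands lower, and without IL-33 replicates 1, 2 and 3, which leaves fewer libraries, 0 ligands were called higher and 1 lower. With 1 library left out at a time, 1 ligand was called higher each time and 2 to 3 lower, and over all genes 1445 to 1969 were called higher and 1193 to 1726 lower.

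Over all genes, library size alone called 1332 higher and 644 lower, DESeq2 called 2577 lower, and a threshold of 0.01 left 1019 higher and 767 lower. Without IL-33 replicates 1, 2 and 3 there were 732 higher and 664 lower. With the replicate number as a block, 791 genes were called higher and 666 lower, and the calls of the 9 ligands held. Tnfsf4, Tnfsf15 and Tnfsf18 missed the threshold with this block (adjusted p = 0.0503, 0.0696 and 0.0593). Tnfrsf10b (0.0861), Tnfrsf1a (0.144), Khsrp (0.0984) and Rcan1 (0.0698) were among the other named genes that missed it. Same-numbered libraries of the groups correlated in their deviations at -0.122, -0.108, -0.0011 and 0.183, and not every library correlated best with its own number, so the numbers were not taken to pair the samples. The cause of these shifts was not tested.

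Signs also turned for genes without a call. Ltbr was 0.154 with library size alone, 0.454 with the acinar share as covariate, 0.581 with limma voom and -1.21 to 0.649 with 1 library left out. Tnfrsf23 was 0.378 with library size alone, 0.215 with the replicate block, 0.724 with the acinar share, 0.38 with limma voom, 0.0749 with limma-trend, -0.553 to 0.984 with 1 library left out and 0.279 without IL-33 replicates 1, 2 and 3. Tnfrsf22 was 0.0191 without IL-33 replicates 1, 2 and 3, and Ddx39b was 0.0262 with library size alone and -0.21 to 0.0398 with 1 library left out. Of the other ligands 81 of 92 values, and of the other named genes tested this way 489 of 574, kept direction and side. Ligands near 0 CPM, such as Fasl, Cd40lg and Tnfsf8 with PBS, are limited by depth.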
